A study of Mus musculus with 12 samples.

Results

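The probes described here are those that the array's design names by a genomic interval and a strand in place of a gene, as in chr5:152006587-152008784_R, where F and R stand for the forward and the reverse strand. They were taken by that form of name alone, with control spots left out, and number 16181 of 55681 probes (29.1%). They cover 4607 strands of 3540 intervals, of which 1067 intervals were probed on both strands, 1251 on the forward strand only and 1222 on the reverse strand only. An interval is between 62 and 7128487 bases long, with a median of 7315.5 bases, and a strand carries 1 to 10 probes of 60 bases, with a median of 3. Positions are on mm9, as the files give them, and 118 of these probes have no mapped position.

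Total RNA of whole liver from untreated BALB/c mice was hybridised to 1-colour Agilent arrays in 4 groups of 3 arrays each: wild type mice at 6 weeks, wild type mice at 12 weeks, interleukin-18 knockout mice at 6 weeks and interleukin-18 knockout mice at 12 weeks of age. The labels call the arrays of a group biological replicates. They name an interleukin-18 knockout and no cell type to which the loss is confined. How the knockout allele was made, what backcrossing it had and the sex of the animals are not given in the sources used here. The comparisons ask which of these intervals differ in transcript level between the genotypes at each age and between the ages in each genotype.

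Long noncoding RNAs are transcripts that do not encode a protein. Many are spliced and polyadenylated like messenger RNA, and many are found at low levels and in few tissues. Some act in the nucleus: Neat1 is the scaffold of nuclear bodies called paraspeckles, and Malat1, its neighbour on the same strand, is an abundant transcript of nuclear speckles. Others are hosts of small RNAs, such as Mir17hg, which carries the miR-17-92 cluster, or lie beside a protein-coding gene, as Pvt1 does beside Myc. Interleukin-18 is a cytokine made as an inactive precursor and released by macrophages and epithelial cells, and it drives T and NK cells to make interferon-gamma.

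The sequences of 9 probes on which the results turn are given as the files hold them, 5′ to 3′ on the strand of the name. Capitals mark bases that a probe shares, by position, with another probe of the same set. The first set is an interval strand whose 3 probes all lost their signal in the knockout at both ages.
A_30_P01026974, chr5:152006609-152006668, reverse: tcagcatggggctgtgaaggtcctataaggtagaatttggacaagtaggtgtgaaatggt
A_30_P01026021, chr5:152006725-152006784, reverse: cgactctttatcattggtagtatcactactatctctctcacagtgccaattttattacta
A_30_P01023457, chr5:152006785-152006844, reverse: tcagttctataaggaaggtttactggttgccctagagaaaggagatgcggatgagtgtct
The second set is a pair beside Neat1 that shares 43 bases, of which one has the larger rise in the knockout.
A_30_P01021879, chr19:5845035-5845094, forward: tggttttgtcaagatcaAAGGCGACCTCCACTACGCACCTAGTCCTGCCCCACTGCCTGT
A_30_P01020769, chr19:5845052-5845111, forward: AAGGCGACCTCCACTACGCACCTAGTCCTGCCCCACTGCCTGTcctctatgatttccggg
The third set is a pair on chromosome 17 that shares 19 bases and whose order between the genotypes turned with age.
A_30_P01024995, chr17:32045086-32045145, reverse: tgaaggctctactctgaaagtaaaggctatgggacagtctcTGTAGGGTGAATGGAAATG
A_30_P01021437, chr17:32045045-32045104, reverse: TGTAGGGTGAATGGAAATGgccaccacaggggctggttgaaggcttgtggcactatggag
The last set lies on opposite strands of a chromosome 8 interval, where 12 positions are read in both directions.
A_30_P01028635, chr8:26348345-26348404, reverse: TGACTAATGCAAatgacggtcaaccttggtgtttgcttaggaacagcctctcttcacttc
A_30_P01019579, chr8:26348393-26348452, forward: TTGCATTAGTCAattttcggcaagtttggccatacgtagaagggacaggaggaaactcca

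Most of these probes gave little signal. A probe counts as detected on an array where the scanner software marks it well above background, and it was tested where it was detected on all 3 arrays of at least 1 group. Of the 16181 region probes, 5772 (35.7%) were tested, against 24032 of 39500 probes of named genes and other transcripts (60.8%). On 0 of 12 arrays 6673 region probes (41.2%) were detected, and on all 12 arrays 4240 (26.2%). A tested probe was present on 2905 of the 4607 interval strands (63.1%). Per array the share of region probes detected was 29.9% to 37.5% in the wild type at 6 weeks and 34.2% to 40.3% in the other 3 groups. All 3 arrays of a group detected 4492 region probes in the wild type at 6 weeks, 5209 in the wild type at 12 weeks, 5008 in the knockout at 6 weeks and 5288 in the knockout at 12 weeks. The number of probes that met this rule in 1 group alone was 41, 180, 116 and 233 in the same order. A probe that is tested only because 1 group is bright had to differ from a dim group, so the counts of calls below are no measure of all region probes. For such a probe the p-value against a dim group is no support apart from the filter.

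**Figure D1:**
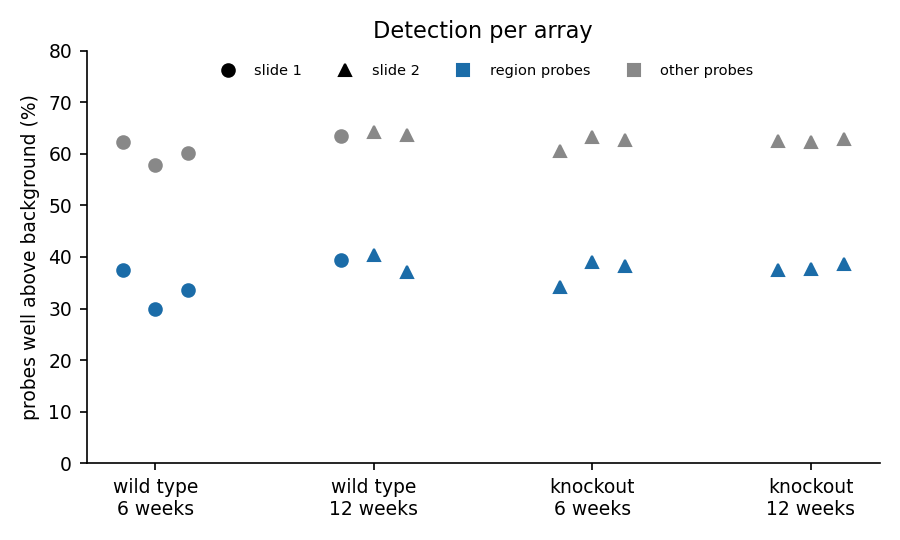
Share of probes well above background on each of the 12 arrays, in percent, for region probes (blue) and all other probes (grey), by group; circles are arrays of slide 1 and triangles arrays of slide 2. Region probes lie between 29.9% and 40.3% and other probes between 57.7% and 64.3%.

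Slide and scan coincide in this series. All wild type arrays of 6 weeks and wild type replicate 1 of 12 weeks shared slide 1, while every knockout array and wild type replicates 2 and 3 of 12 weeks shared slide 2. At 6 weeks slide and genotype therefore cannot be told apart, except through the 12-week wild type arrays on both slides, on which the fit with slide as a block rests. Of these, slide 1 holds replicate 1 alone, so the slide term rests on that array against replicates 2 and 3. At 12 weeks and between the knockout ages the block gave the same counts as leaving that array out (153 and 254 calls). In those comparisons the block and that left-out fit are not separate checks. At 12 weeks the genotypes were also compared on slide 2 alone (2 wild type and 3 knockout arrays), and the knockout ages lie wholly within slide 2. The first principal component of the region probes held 30.8% of their variance, with scores of -28.2 to -15.8 for the arrays of slide 1 and 4.93 to 17.1 for those of slide 2. Hepatocyte markers (10 of 10 detected on all arrays) summed to between 5495 and 6857 times the 75th percentile per array. Erythroid markers (4 of 5 on all arrays) summed to 65.2 to 106 in the wild type and 116 to 183 in the knockout, and T and NK cell markers (5 of 8 on all arrays) to 62.4 to 102 in the wild type and 37.3 to 62.5 in the knockout. Of the erythroid markers, 3 were called higher and 1 lower at 6 weeks, and 2 higher at 12 weeks. Adipocyte markers (0 of 5 on all arrays, 0 called) summed to 1.14 to 1.66 in the knockout at 12 weeks. In the other groups they summed to 0.16 to 0.89. The part of these cells in the values below was not tested, and in whole liver a smaller number of cells and less RNA per cell cannot be told apart. The Il18 probe was lower in the knockout by 5.78-fold at 6 weeks and 5.04-fold at 12 weeks, at levels of 2.15 to 2.50 on the 6 wild type arrays and -0.36 to 0.05 on the 6 knockout arrays.

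A level is the log2 processed signal minus the log2 of the 75th percentile on that array, so that 0 stands for the percentile. Differences are log2 with the standard error (±) of 1 limma fit over the 12 arrays, 3 in each group. Adjusted p-values come from that limma fit, corrected by Benjamini and Hochberg over the 29804 probes tested, and pass below 0.05. A bound written as at least N-fold sets the bright group against the lowest signal counted as detected, and is used where no array of the dim group detected the probe. Under another background correction (normexp with an offset of 50) fitted differences of dim probes shrink strongly, for example from 2.45 to 0.74 for probe A_30_P01025687 described below. Levels of different probes are not compared, since each probe has its own affinity.

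In the knockout at 6 weeks 892 of the 5772 region probes tested (15.5%) passed, against 19.8% of all probes tested. Of these, 403 were higher and 489 lower, while over all probes 11.7% were higher and 8.14% lower. At 12 weeks 193 region probes passed (3.34%), 127 higher and 66 lower, against 7.26% of all probes (5.2% higher and 2.06% lower). Between the ages 289 region probes (5.01%) passed in the wild type, 165 higher at 12 weeks and 124 lower, against 8.27% of all probes (4.28% and 3.98%). In the knockout 207 (3.59%) passed between the ages, 126 higher and 81 lower, against 6.26% of all probes (3.58% and 2.68%). The genotype difference itself changed with age for 291 region probes (5.04%), upward for 149 and downward for 142, against 9.6% of all probes (5.07% and 4.54%). Averaged over the ages it passed for 822 (14.2%), 396 higher and 426 lower, against 19.4% (12.7% and 6.67%). In each of the 6 comparisons the share of region probes called was below the share over all probes. The balance of directions changed with the background correction and with the arrays used. After normexp 543 were higher and 470 lower at 6 weeks, with the median difference at 0.01 in place of -0.06, and 738 higher and 416 lower averaged over the ages. Without wild type replicate 3 of 12 weeks, 113 were higher and 181 lower at 12 weeks. Without wild type replicate 1 of 12 weeks, 234 rose and 742 fell with age in the wild type.

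With the slide as a block the count at 6 weeks became 88 (74 higher and 14 lower), of which 35 were among the 892. At 12 weeks it became 153 (110 higher and 43 lower), of which 102 were among the 193, and 92 were called on slide 2 alone. In the wild type between the ages it became 120 (92 higher and 28 lower, 51 in common) and in the knockout 254 (193 in common). Over all 29804 probes tested, 694 passed with the slide as a block at 6 weeks (395 higher and 299 lower). At 12 weeks 1494 did (954 higher and 540 lower). Between the ages 905 did in the wild type (452 higher and 453 lower) and 2169 in the knockout. The median log2 difference of the region probes at 6 weeks was -0.06 without the block and 0.16 with it, and that of all probes was 0.03 in both. The sign of that median turned with the slide term. The loci described next and the printed probes were chosen after their values were seen, beside those that a rule of size took.

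**Figure D2:**
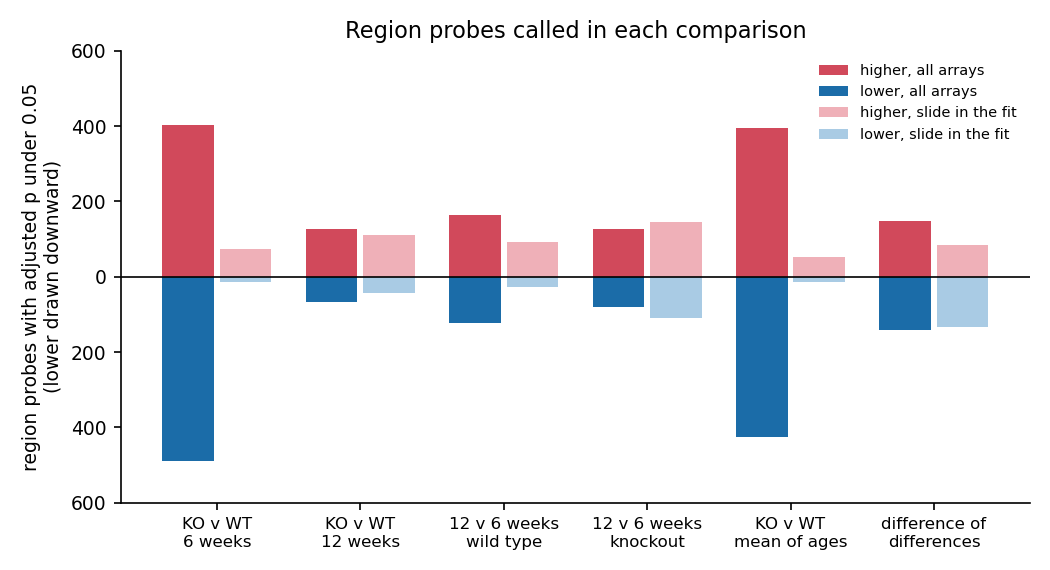
Number of region probes with an adjusted p under 0.05 in each comparison, higher above the axis and lower below it, in the fit over all arrays and in that with a slide term. The knockout difference at 6 weeks falls from 892 to 88 calls and the age difference in the knockout goes from 207 to 254.

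One interval had lost its signal in the knockout. The reverse strand of chr5:152006587-152008784 was detected by 3 of 3 probes on all 6 wild type arrays and by 0 of 3 on the 6 knockout arrays. Probe A_30_P01026974 read -1.80, -1.98 and -2.05 in the wild type at 6 weeks, -2.27, -1.82 and -2.07 in the wild type at 12 weeks, -6.35, -6.51 and -6.62 in the knockout at 6 weeks and -6.62, -6.60 and -6.53 in the knockout at 12 weeks. The groups of a genotype overlap, and more than 4 log2 units separate the genotypes. Against the lowest signal counted as detected, the level in the knockout was at least 5.58-fold lower at 6 weeks (adjusted p = 8.1e-08) and at least 5.54-fold lower at 12 weeks (adjusted p = 8.44e-08).

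The other probes of this interval behaved alike. Probe A_30_P01026021 read -3.23, -2.90 and -2.92, then -3.35, -2.51 and -2.84 in the wild type at 6 and 12 weeks, and -5.55, -6.55 and -4.91, then -6.09, -5.35 and -5.15 in the knockout. Probe A_30_P01023457 read -3.29, -2.85 and -2.56, then -3.16, -2.34 and -2.93 in the wild type, and -6.42, -6.60 and -6.75, then -6.72, -6.71 and -6.61 in the knockout. Neither had a knockout array inside its wild type range. The knockout was at least 2.66-fold and 2.88-fold lower for these probes at 6 weeks (adjusted p = 0.00198 and 1.52e-05) and at least 3.08-fold and 3.28-fold lower at 12 weeks (adjusted p = 0.00578 and 1.85e-05). All 6 calls passed with any 1 array left out and in the fit that includes the slide (adjusted p between 4.19e-07 and 0.0453), and on slide 2 alone the 12-week calls had adjusted p-values of 2.8e-05, 0.0352 and 0.00042. After the normexp correction the fitted 6-week differences were -1.35, -0.51 and -0.85, and all passed.

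No age difference passed for the chromosome 5 interval in either genotype. The nearest named gene, 5430435K18Rik, lies 53.5 kb away and was not tested. Among named genes further along the chromosome, the Stard13 probes were higher in the knockout at 6 weeks by 0.69 ± 0.09 (adjusted p = 0.000839) and 0.72 ± 0.11 (adjusted p = 0.00276), neither of which passed with the slide as a block. At 12 weeks their differences of 0.23 and -0.23 did not pass. Rfc3, a subunit of the clamp loader of DNA replication, differed by 0.36 (adjusted p = 0.0173) at 6 weeks and by -0.34 (adjusted p = 0.0411) at 12 weeks, of which the 12-week call passed with the slide as a block (adjusted p = 0.46 and 0.044).

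**Figure D3:**
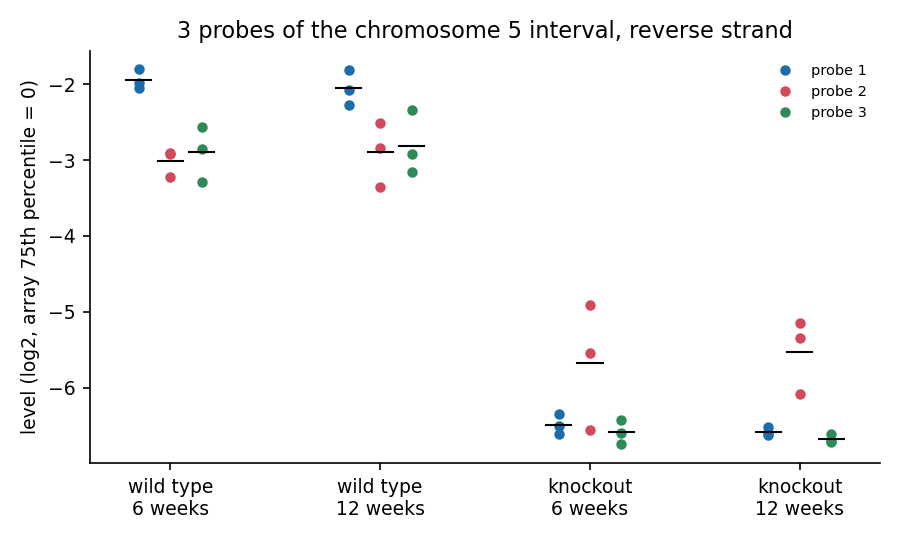
Level (log2, 75th percentile of the array at 0) on each of the 12 arrays for the 3 reverse-strand probes of the chromosome 5 interval, by group, with group means as black lines; probe 1 is A_30_P01026974, probe 2 A_30_P01026021 and probe 3 A_30_P01023457. For probe 1 the 6 wild type arrays lie between -2.27 and -1.80 and the 6 knockout arrays between -6.62 and -6.35.

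A forward-strand probe beside Neat1, whose own probes lie on the reverse strand, was raised in the knockout at both ages. Whether it lies within the span of the Neat1 gene was not tested, since genes were placed by their probes. Probe A_30_P01020769 of chr19:5771425-5848475_F read 3.36, 3.51 and 3.45 in the wild type at 6 weeks and 3.72, 3.61 and 2.96 at 12 weeks. It read 5.31, 5.01 and 5.45 in the knockout at 6 weeks and 5.35, 5.17 and 5.19 at 12 weeks. All knockout arrays were above all wild type arrays. The difference was 1.82 ± 0.18 at 6 weeks (adjusted p = 0.000279) and 1.80 ± 0.18 at 12 weeks (adjusted p = 0.0015), and both passed with any 1 array left out and with the slide as a block (adjusted p = 0.0092 and 0.00207).

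Its overlapping partner A_30_P01021879, with the 43 bases in capitals in common, read -0.37, -0.23 and 0.38, then -0.07, -0.64 and -0.98 in the wild type, and 0.56, 0.29 and 0.81, then 0.78, 0.48 and 0.51 in the knockout. The wild type array of 0.38 lay above the knockout array of 0.29 at 6 weeks, where the difference of 0.63 missed the threshold (adjusted p = 0.105). At 12 weeks the partner was higher in the knockout by 1.15 ± 0.25 (adjusted p = 0.0258), a call lost without any one of the 3 knockout arrays or of replicates 2 and 3 of the wild type at 12 weeks (adjusted p up to 0.0883). The same strand had 10 tested probes. At 12 weeks A_30_P01020604 also passed (0.80, adjusted p = 0.0292, lost in 5 of 12 fits with 1 array left out), and at 6 weeks A_30_P01022465 did (1.86, adjusted p = 0.0204), where the fit with the slide gave -0.05. The other 6 tested probes had differences of -0.97 to 0.55 at 6 weeks, and none of them passed at either age.

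On the reverse strand of this interval, 6 probes of Neat1 were higher in the knockout at 12 weeks, by 1.06 to 1.17 with 6 of 6 past the threshold. At 6 weeks their differences ran from 0.26 to 0.69 and 1 of 6 passed. The Neat1 probe A_51_P234692 read 2.16, 2.07 and 2.12, then 1.99, 2.47 and 1.38 in the wild type, and 2.47, 2.88 and 2.67, then 3.11, 2.93 and 3.15 in the knockout. Its 12-week difference was 1.12 ± 0.22 (adjusted p = 0.0178, 0.043 with the slide as a block and 0.09 on slide 2 alone), and the call was lost without replicate 1 or 3 of the knockout at 12 weeks. Replicate 3 of the wild type at 12 weeks was the lowest array for Neat1 and for the forward probe with the large rise.

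Toward Malat1 the region probes gave another picture. At the position where the Malat1 probe sits, Malat1 and 2 of 3 probes under its older name NEAT2 were higher at 12 than at 6 weeks in the knockout, Malat1 by 1.29 ± 0.33 (adjusted p = 0.0465), and the region probe A_30_P01028538 there differed by 1.34 (adjusted p = 0.0517). The 6 region probes of chr19:5798135-5800557_R and chr19:5801802-5802597_R, a few kb away on the same strand, differed by -0.09 to 0.20 in this comparison and none passed. Genes were placed by the positions of their probes, so whether these 2 intervals lie within the Malat1 transcript was not tested.

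**Figure D4:**
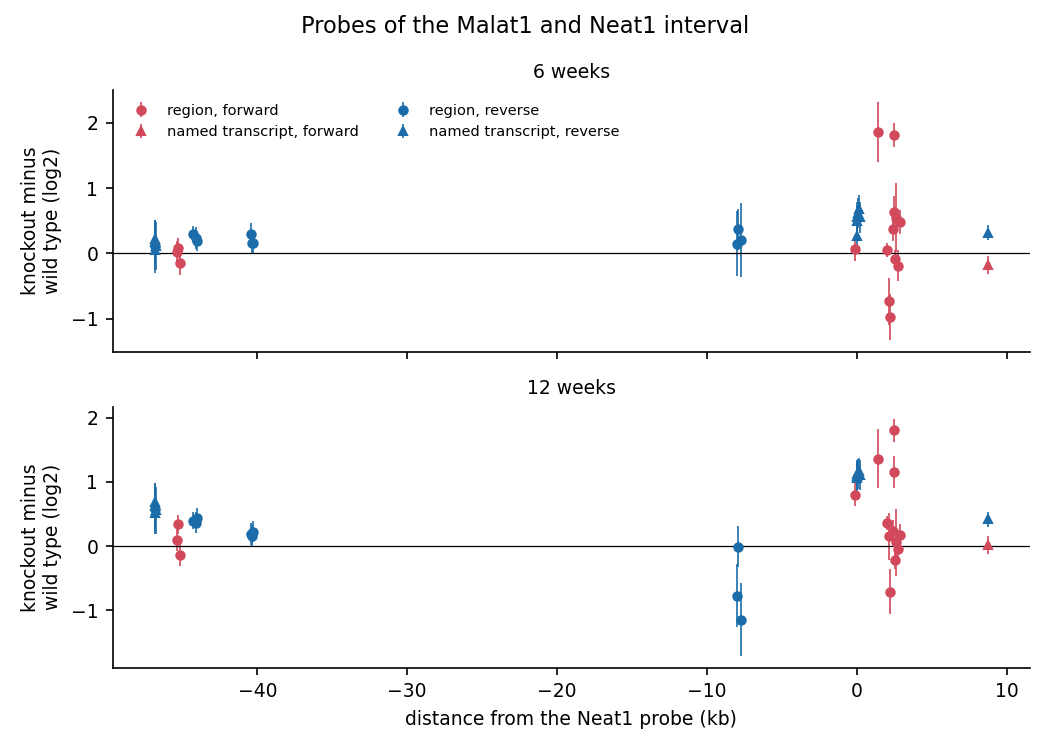
Knockout minus wild type log2 difference with its standard error at 6 and at 12 weeks for tested probes of the Malat1 and Neat1 interval, by distance in kb from the Neat1 probe; circles are region probes and triangles named transcripts, red on the forward and blue on the reverse strand. Of the forward probes, A_30_P01020769 has differences of 1.82 and 1.80 and A_30_P01022465 one of 1.86 at 6 weeks, and the 6 Neat1 probes lie between 1.06 and 1.17 at 12 weeks.

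On chromosome 17 the genotype difference turned with age. The reverse strands of the overlapping intervals chr17:32044823-32045974 and chr17:32035750-32056000 were read by 5 tested probes. A_30_P01019750 read -0.29, -0.34 and 0.13 in the wild type at 6 weeks, 1.11, 1.58 and 0.99 in the wild type at 12 weeks, 1.31, 1.28 and 1.12 in the knockout at 6 weeks and -0.12, 0.49 and 0.19 in the knockout at 12 weeks. The knockout was thus above the wild type at 6 weeks and below it at 12 weeks, with no overlap at either age. The difference was 1.40 ± 0.20 at 6 weeks (adjusted p = 0.00156) and -1.04 ± 0.20 at 12 weeks (adjusted p = 0.0142, 0.052 on slide 2 alone), and the change of the difference was -2.44 ± 0.28 (adjusted p = 0.00108).

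Over the 5 chromosome 17 probes the 6-week difference ran from 1.27 to 1.41 and 5 of 5 passed, and the 12-week difference ran from -1.04 to -0.85 and 4 of 5 passed, of which A_30_P01024995 did not pass with the slide as a block (adjusted p = 0.064). In the wild type the level rose from 6 to 12 weeks by 1.34 to 1.40 in 5 of 5 probes, of which 1 passed with the slide as a block. In the knockout it fell by 0.79 to 1.05, with 3 of 5 past the threshold. The overlapping pair printed above, A_30_P01024995 and A_30_P01021437, had changes of the genotype difference of -2.23 ± 0.33 and -2.16 ± 0.39. That change passed for 5 of 5 probes with any 1 array left out and in the fit that includes the slide, whereas the 6-week difference alone passed for 0 of 5 with the slide as a block (adjusted p = 0.12 to 0.27). Of the 2 tested forward-strand probes, A_30_P01026910 differed by 0.97 at 6 weeks (adjusted p = 0.0222) and by -1.48 for the change (adjusted p = 0.0256), and neither call passed with the slide as a block (adjusted p = 0.32 and 0.088). The other, A_30_P01029079, differed by 0.09 at 6 weeks and did not pass. The nearest named gene, Hsf2bp, was not tested.

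The reverse strand of chr16:46384974-46391331, which lies 3.12 kb from Nectin3, a cell adhesion molecule of the nectin family, had the opposite course. Its probe A_30_P01028912 read 0.91, 1.12 and 1.0 in the wild type at 6 weeks and 0.16, 0.11 and 0.19 at 12 weeks, and 0.18, 0.44 and 0.39 in the knockout at 6 weeks and 0.69, 0.49 and 0.75 at 12 weeks. The wild type at 6 weeks was above every other array, and at 12 weeks the knockout was above the wild type. All 5 probes were lower in the knockout at 6 weeks, by 0.68 to 0.89, and 3 of 5 passed with the slide as a block. At 12 weeks the 5 differences ran from 0.37 to 0.57 and 2 passed, but neither on slide 2 alone (adjusted p = 0.074 and 0.09) nor without knockout replicate 1 or 3 or wild type replicate 2 of 12 weeks. From 6 to 12 weeks the wild type fell by 0.86 to 1.06 in 5 of 5 probes, also with the slide as a block, and the change of the genotype difference, 1.17 to 1.37, passed for 5 of 5 with and without it.

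Nectin3 itself, on the same strand, differed at its nearest probe by -0.58 ± 0.12 in the knockout at 6 weeks (adjusted p = 0.00902), by -0.68 from 6 to 12 weeks in the wild type (adjusted p = 0.00819) and by 0.92 in the change of the genotype difference (adjusted p = 0.0083). The 6-week genotype difference and the wild type age difference share the wild type arrays of 6 weeks, at this interval and at every other.

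**Figure D5:**
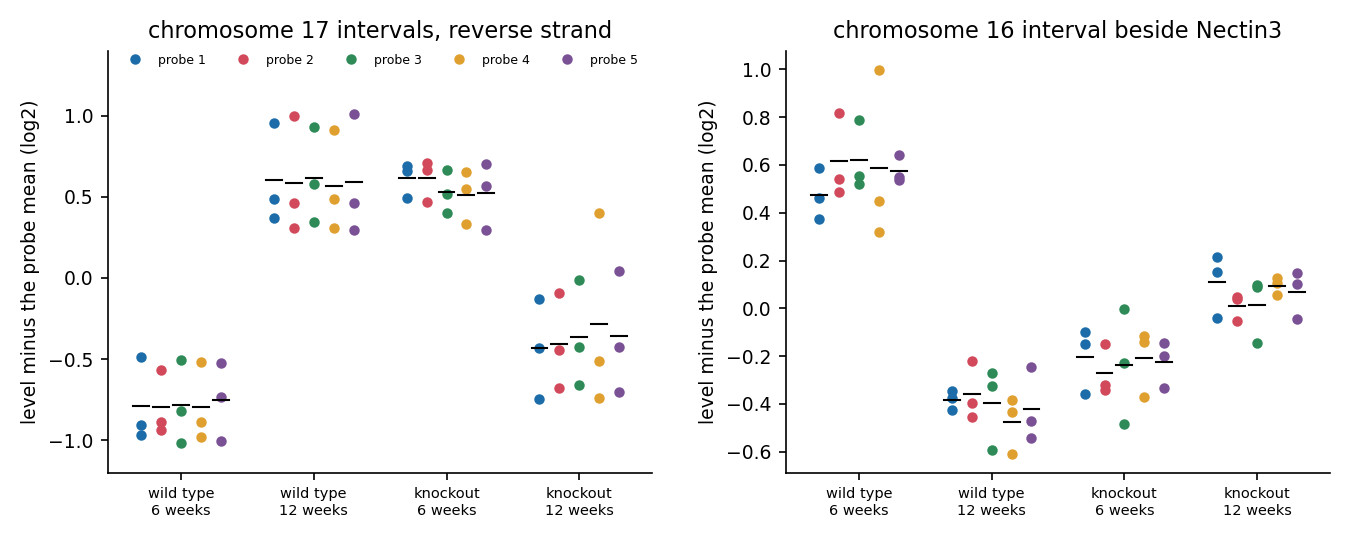
Level on each array minus the probe's mean over the 12 arrays (log2), by group, for the 5 reverse-strand probes on chromosome 17 and the 5 beside Nectin3 on chromosome 16, with group means as black lines. On chromosome 17 the wild type goes up with age and the knockout down, and beside Nectin3 the wild type goes down.

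At the Mir17hg locus on chromosome 14 the probes of chr14:115443612-115445950_F were higher in the knockout at 6 weeks, by 0.98 to 1.20 in 3 of 3 probes (adjusted p = 0.0117 to 0.0281). A_30_P01033133 read -3.24, -3.08 and -2.27, then -1.87, -2.11 and -2.38 in the wild type, and -1.51, -1.50 and -1.98, then -2.84, -2.31 and -2.45 in the knockout. The knockout arrays of 6 weeks lay above those of the other groups apart from 1 wild type array of 12 weeks. None of the 3 passed with the slide as a block (adjusted p = 0.10 to 0.16), and 2 of the 3 calls were lost without replicate 1 or 2 of either 6-week group. The Mir17hg probe differed by 1.14 ± 0.27 (adjusted p = 0.0179, not passed with the slide as a block). Of all 9 tested forward region probes of the locus, 4 were higher in the knockout at 6 weeks and 1 was lower. The lower one (adjusted p = 0.0391) was on chr14:115423660-115463160_F, which holds the Mir17hg probe. There the fit with the slide gave 0.06 to 0.86 over 3 tested probes.

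On the opposite strand nearby, 2 of 5 tested probes passed at 6 weeks, in opposite directions. A_30_P01023049 was lower by 0.62 (adjusted p = 0.0273), where the fit with the slide gave 0.05. A_30_P01028224 of chr14:115423660-115463160_R read -2.07, -2.05 and -1.78, then -1.26, -1.57 and -1.62 in the wild type, and -0.94, -0.82 and -1.14, then -2.03, -2.18 and -1.97 in the knockout. At this probe the knockout was the highest group at 6 weeks and the lowest at 12 weeks. The differences were 1.0 ± 0.13 at 6 weeks (adjusted p = 0.000986, 0.015 with the slide as a block), -0.58 at 12 weeks (adjusted p = 0.0275, 0.084 on slide 2 alone) and -1.58 ± 0.18 for the change (adjusted p = 0.00115, 0.0027 with the slide). In the knockout the level fell by 1.09 from 6 to 12 weeks (adjusted p = 0.00163), a comparison within slide 2.

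Inside the Pvt1 locus 3 forward probes were dark in the wild type at 6 weeks and detected in the other 3 groups. Of 9 tested forward region probes, these 3 were higher in the knockout at 6 weeks and 1 was lower. The differences ran from -0.80 to 2.45, with a median of -0.13. A_30_P01025687 of chr15:61984389-62102500_F read -5.57, -5.66 and -4.67 in the wild type at 6 weeks, -2.79, -2.82 and -3.13 in the wild type at 12 weeks, -2.82, -2.90 and -2.82 in the knockout at 6 weeks and -2.29, -2.77 and -2.40 in the knockout at 12 weeks. Only the youngest wild type group stood apart. The knockout was at least 2.54-fold higher at 6 weeks (adjusted p = 0.000216, 0.022 with the slide as a block), and the wild type at least 2.43-fold higher at 12 than at 6 weeks (adjusted p = 0.000539, 0.0091 with the slide).

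In chr15:62046023-62082530_F, A_30_P01031483 was at least 1.43-fold higher in the knockout at 6 weeks (adjusted p = 0.0104) and A_30_P01027654 at least 2.25-fold (adjusted p = 0.00494), though neither passed with the slide as a block (adjusted p = 0.15 and 0.2). The third probe, A_30_P01029562, differed by -0.29 and did not pass. The same split held for Pvt1 by name: A_55_P2051254 was higher by 1.97 ± 0.22 at 6 weeks (adjusted p = 0.000433, 0.04 with the slide as a block), while A_55_P2155654, which starts at the same base as A_30_P01029562, differed by -0.08 and did not pass. On the opposite strand A_30_P01021541 was lower in the knockout at 6 weeks by 2.22 ± 0.44 (adjusted p = 0.00835, not passed with the slide as a block). The second of the 2 tested region probes there differed by -0.60 and also passed, but not with the slide as a block.

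Near Mir99ahg, the host gene of the miR-99a and let-7c cluster, A_30_P01018977 of chr16:77670599-77691642_F was higher in the knockout at both ages. It read -2.26, -2.37 and -2.39, then -2.14, -2.22 and -2.22 in the wild type, and -1.69, -1.69 and -1.78, then -1.83, -1.95 and -1.86 in the knockout. The genotypes did not overlap, and the gap narrowed with age. The difference was 0.62 ± 0.07 at 6 weeks (adjusted p = 0.000573, 0.026 with the slide as a block) and 0.31 ± 0.07 at 12 weeks (adjusted p = 0.0318, lost in 6 of 12 fits with 1 array left out and on slide 2 alone, adjusted p = 0.076). The change of the difference did not pass (adjusted p = 0.085). The second probe of this strand, A_30_P01024768, was higher at 6 weeks by 0.67 (adjusted p = 0.0173), and Mir99ahg by 0.51 (adjusted p = 0.0257). Neither passed with the slide as a block (adjusted p = 0.16 and 0.25).

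Of all 5772 region probes tested, 15 (0.260%) were higher in the knockout at both ages, 19 (0.329%) lower at both and 23 (0.398%) passed with opposite signs. Over all probes tested the shares were 0.966%, 0.423% and 0.919%. With the slide as a block as well, 2 remained higher, the Mir99ahg-side probe and A_30_P01020769 beside Neat1, and 3 remained lower, which are the probes of the chromosome 5 interval. Of all 29804 probes tested, 23 remained higher and 26 lower. At 12 weeks 51 region probes (0.884%) passed over all arrays, with the slide as a block and on slide 2 alone, against 2.21% of all probes.

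Among the rises at 12 weeks were 2 intervals that overlap a named gene on the same strand. The 3 probes of chr5:122048289-122068947_R, which overlaps Acad12, a gene of the acyl-CoA dehydrogenase family, were higher in the knockout by 0.46 ± 0.08, 0.58 ± 0.10 and 0.63 ± 0.11 (adjusted p = 0.00848, 0.0101 and 0.0099). For A_30_P01019353 the wild type arrays lay between -0.09 and 0.12 and the knockout arrays of 12 weeks at 0.37, 0.45 and 0.44. All 3 passed with any 1 array left out, which at 12 weeks takes in the slide block, and 2 of 3 on slide 2 alone. The probe of Acad12 nearest to them was higher by 0.59 (adjusted p = 0.00728).

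The other was chr7:144567251-144602440_R over 9430038I01Rik. A_30_P01028944 read 1.59, 1.53 and 1.41, then 1.29, 1.26 and 1.34 in the wild type, and 1.16, 1.08 and 1.14, then 2.05, 2.11 and 1.97 in the knockout. The knockout at 12 weeks was above every other array. It was higher than the wild type by 0.75 ± 0.07 at 12 weeks (adjusted p = 0.00114) and higher than at 6 weeks by 0.92 ± 0.07 (adjusted p = 0.000225). The 4 region probes beside that of 9430038I01Rik rose by 0.41 to 0.75 and by 0.58 to 0.92 in these comparisons, and 9430038I01Rik by 0.78 (adjusted p = 0.00249) and 0.87 (adjusted p = 0.000991). The other 3 tested reverse probes, farther from it, did not pass, nor did the 5 forward probes.

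The reverse strand of chr8:119092623-119094219, 4.11 kb from Cdyl2, a chromodomain gene, was higher in the knockout at 12 weeks in 3 of 3 probes, by 0.50 to 0.62 (adjusted p = 0.00992 to 0.0214). For A_30_P01019173 the wild type arrays of 12 weeks read -0.22, -0.26 and -0.03 and the knockout arrays 0.30, 0.50 and 0.55. With the slide as a block 2 of 3 passed, and on slide 2 alone 0 of 3 (adjusted p = 0.068 to 0.11). The Cdyl2 probe differed by 0.55 and did not pass (adjusted p = 0.21).

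Several intervals rose from 6 to 12 weeks in the knockout, a comparison that lies within slide 2. In chr8:26343277-26352902, 3 of 4 tested forward probes were higher at 12 weeks, by 1.31 to 1.79. On the reverse strand A_30_P01023279 was higher by 1.62 (adjusted p = 0.0115) and A_30_P01028635 by 1.40 ± 0.29 (adjusted p = 0.0193). They were the only 2 called of 9 reverse region probes tested at this locus. The differences of those 9 ran from -0.23 to 1.90, with a median of 1.16. A_30_P01028635 read -3.09, -2.99 and -2.59, then -2.93, -3.04 and -2.30 in the wild type, and -3.05, -2.64 and -2.90, then -2.09, -0.99 and -1.30 in the knockout. The knockout at 12 weeks was the highest group, and the call was lost without replicate 2 or 3 of the knockout at 12 weeks or replicate 1 or 3 at 6 weeks. Its partner on the other strand, A_30_P01019579, differed by 1.72 and did not pass (adjusted p = 0.0616). The forward calls of 1.31 and 1.79 had adjusted p-values of 0.045 and 0.043, and were lost in 10 and 9 of 12 fits with 1 array left out.

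Beside the Speer4 genes on chromosome 5, forward probes of chr5:15146475-15170100 and chr5:14943275-14944205 rose in the knockout by 1.84 (adjusted p = 0.0183), 2.22 (adjusted p = 0.0379) and 1.91 (adjusted p = 0.0132). These were the only 3 called of 12 forward region probes tested at this locus. The differences there ran from -0.44 to 2.22, with a median of 0.19. Each of the 3 calls was lost without replicate 2 of the knockout at 12 weeks or replicate 1 at 6 weeks. A_30_P01029005 read -4.27, -3.61 and -4.12 in the knockout at 6 weeks and -2.08, -1.75 and -2.45 at 12 weeks, with wild type arrays between -5.03 and -3.00. The 12-week knockout arrays lay above all others. The Speer genes form a family of near-identical copies, and probes there may read several of them.

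In chr5:36969767-37087176_R 3 of 3 probes rose in the knockout, by 1.17 ± 0.15, 0.95 ± 0.18 and 1.13 ± 0.20 (adjusted p = 0.0023, 0.0128 and 0.0119). A_30_P01017622 read -2.92, -3.12 and -3.03 at 6 weeks and -2.13, -1.53 and -1.89 at 12 weeks in the knockout, and -2.94 to -2.46 in the wild type. The probes of chr6:121035524-121061074_R rose by 1.32 (adjusted p = 0.00884) and 1.44 (adjusted p = 0.0261), and those of chr2:177256373-177257429_F by 0.80 (adjusted p = 0.00137) and, for A_30_P01027807, at least 1.72-fold (adjusted p = 0.0107). D5Ertd579e, inside the first interval, differed by 0.25 and did not pass.

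Beside Pim1, a kinase gene induced by cytokine signalling through STAT proteins, both probes of chr17:29571806-29603008_F were higher in the knockout at 12 weeks, by 1.82 ± 0.48 (adjusted p = 0.048) and 1.73 ± 0.43 (adjusted p = 0.0385). With the slide as a block 1 of the 2 passed, A_30_P01030222 (adjusted p = 0.049), and A_30_P01027519 did not (adjusted p = 0.093). A_30_P01030222 read -3.94, -4.65 and -5.16 in the wild type and -3.14, -2.30 and -2.86 in the knockout at 12 weeks. In the knockout it was at least 3.16-fold higher at 12 than at 6 weeks (adjusted p = 0.028). The 12-week genotype calls of these probes were lost in 10 and 9 of 12 fits with 1 array left out, and the age call in 6 of 12. Pim1, 27.7 kb away, was higher by 1.05 (adjusted p = 0.036) and 1.45 (adjusted p = 0.01) in the same comparisons.

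Other intervals fell with age in the knockout. Neighbouring probes of chr1:138570107-138632310_F fell by 1.46 ± 0.27 (A_30_P01033599, adjusted p = 0.0135, lost in 3 of 12 fits with 1 array left out) and 1.38 ± 0.22 (A_30_P01027393, adjusted p = 0.00723). They were the only 2 called of 18 forward region probes tested at this locus, where the differences reached 0.19, with a median of -0.20. A_30_P01027393 read -3.02, -3.25 and -3.16 at 6 weeks and -4.35, -4.38 and -4.85 at 12 weeks in the knockout, against -3.70 to -2.51 on the wild type arrays. It was lower than the wild type at 12 weeks by 1.50 ± 0.22 (adjusted p = 0.00591, 0.0104 with the slide as a block). Both probes of chr4:131734714-131742542_R, which lies 0.135 kb from the probe of Ythdf2, a reader of methylated RNA, were also lower at 12 weeks, by at least 1.63-fold for A_30_P01018331 (adjusted p = 0.00504) and by 0.57 for the other (adjusted p = 0.00801).

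Some of the largest differences were those of 1 probe on its strand. At 6 weeks A_30_P01018129 of chr19:23068397-23190256_R read -3.63, -1.99 and -2.48 in the wild type and between -6.67 and -5.08 on the other 9 arrays. It was at least 3.31-fold lower in the knockout (adjusted p = 0.00149, 0.079 with the slide as a block) and at least 3.76-fold lower in the wild type at 12 than at 6 weeks (adjusted p = 0.00243, 0.0306 with the slide). Its second tested probe passed in neither comparison. A_30_P01018129 met the filter through the wild type of 6 weeks, its only bright group, so these p-values are no separate support.

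A_30_P01027172 of chr8:49866197-49866841_R read -1.33, -1.51 and -1.81, then 1.95, 1.51 and -0.23 in the wild type, and 0.53, 1.30 and 1.96, then 1.85, 1.64 and 1.83 in the knockout. Only the wild type at 6 weeks was low. The knockout was higher by 2.81 ± 0.50 at 6 weeks (adjusted p = 0.00509, 0.0369 with the slide as a block). A_30_P01032749 of chr8:108153471-108159672_R read -2.18, -2.68 and -2.48, then -3.36, -4.22 and -4.56 in the wild type, and -4.92, -5.58 and -5.10, then -5.46, -4.65 and -4.93 in the knockout. It was at least 3.95-fold lower in the knockout at 6 weeks (adjusted p = 0.00051, 0.0765 with the slide as a block).

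At 12 weeks A_30_P01027453 of chr19:46413742-46418617_F was detected in the knockout alone, at -4.21, -1.40 and -4.08 against -6.53, -6.66 and -6.60 in the wild type. It was at least 2.61-fold higher (adjusted p = 0.0239), a call lost without replicate 1 or 2 of the wild type at 12 weeks and with the slide as a block (adjusted p = 0.0563). Replicate 2 of the knockout was far above the others. Of the 2 groups compared, only the knockout met the filter, so this p-value is no separate support.

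On chromosome 9, A_30_P01021147 of chr9:9024733-9041933_F, 18.3 kb from Arhgap42, read -4.81, -4.26 and -4.34, then -5.36, -5.35 and -5.87 in the wild type, and -3.50, -3.75 and -3.58, then -3.83, -3.51 and -3.47 in the knockout. All 6 knockout arrays lay above the wild type. It was at least 2.01-fold higher at 12 weeks (adjusted p = 0.000857, 0.00291 with the slide as a block), and 3 of 5 tested probes of the strand passed in that comparison, 2 of them also with the slide as a block. The nearby Arhgap42 probe was higher by 0.51 at 6 weeks (adjusted p = 0.0191, 0.62 with the slide as a block), and its 12-week difference of 0.24 did not pass.

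Among the falls at 12 weeks, A_30_P01026442 of chr12:110870903-110891628_R read -4.08, -2.89 and -2.85 in the wild type and -5.76, -4.69 and -5.30 in the knockout. It was at least 2.37-fold lower (adjusted p = 0.0224, 0.0154 with the slide as a block), and the call was lost without replicate 1 or 3 of the knockout or replicate 2 or 3 of the wild type at 12 weeks. A_30_P01022733 of chr5:125190100-125209625_R was at least 2.46-fold lower (adjusted p = 0.0154, lost without replicate 1 or 3 of the knockout at 12 weeks) and was 1 of 7 tested probes of its strand to pass.

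In the wild type A_30_P01019010 of chr11:96111499-96126224_R, 11.5 kb from Hoxb9, a homeobox gene of the HoxB cluster, rose between the ages. It read -2.61, -2.69 and -2.90 at 6 weeks and 0.40, -0.51 and -0.05 at 12 weeks, and in the knockout -1.37, -1.50 and -1.39, then -0.18, -0.60 and -0.39. The wild type started lower and reached the same range as the knockout. The rise was 2.68 ± 0.20 (adjusted p = 0.000123, 0.000294 with the slide as a block), and the other tested probe of the strand did not pass.

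Beside the glutathione S-transferase genes Gsta1 and Gsta4 on chromosome 9, region probes of both strands were lower in the knockout at 6 weeks. On chr9:78107225-78118850_F the 2 tested probes were lower by 1.62 (adjusted p = 0.0191) and 1.60 (adjusted p = 0.0317), and on the reverse strand A_30_P01028123 by 1.81 ± 0.40 (adjusted p = 0.0135). A_30_P01028766 read 4.39, 3.52 and 3.78 in the wild type and 2.05, 2.62 and 2.17 in the knockout at 6 weeks. At 12 weeks it read 2.94, 3.40 and 4.47 in the wild type and 3.57, 4.16 and 3.14 in the knockout, where the groups overlap. Gsta1 differed by -1.61 at 6 weeks (adjusted p = 0.0204). With the slide as a block the 6-week differences were larger and did not pass (adjusted p = 0.063 to 0.088). These genes have near-identical relatives, so the probes may read more than 1 of them.

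Both strands of an interval were detected more often than 1 strand alone. Of the 1067 intervals probed on both strands, 591 (55.4%) had a tested probe on each strand, 178 on the forward strand only, 184 on the reverse strand only and 114 on neither. In 200 of these intervals the probes of a named gene lay on 1 strand only. There the strand of the gene was detected in 146 (73%) and the opposite strand in 142 (71%). Calls on both strands were rarer: at 6 weeks 357 intervals had a call, and 59 had calls on both strands, 34 with 1 sign, 20 with opposite signs between strands and 5 with mixed signs. At 12 weeks 5 of 78 intervals with a call had it on both strands, between the ages in the wild type 9 of 124 and in the knockout 4 of 67, and the latter 13 had the same sign on both.

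Probes of 1 strand seldom passed together. At 6 weeks 484 interval strands had more than 1 tested probe and at least 1 call, and in 46 (9.50%) all tested probes passed with 1 sign. For named genes with more than 1 probe it was 375 of 1321 (28.4%). At 12 weeks it was 9 of 124 strands (7.26%) against 110 of 581 genes (18.9%). In the knockout between the ages all probes passed on 16 of 106 strands (15.1%). Named genes mostly had 2 probes and the strands more, so these shares are not over equal numbers of probes. In 62 pairs of tested probes a region probe overlapped a named gene's probe on the same strand. At 6 weeks both passed with the same sign in 10 of these pairs, 1 of the pair passed in 8, neither in 44, and 0 passed with opposite signs.

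Not all intervals lay between genes. A probe of a named gene lay inside 715 of the 4607 interval strands (15.5%), and in 445 (9.66%) it was on the same strand, with a long noncoding RNA in 229 and a protein-coding gene in 181. Within 10 kb there was a named gene for 1895 (41.1%), within 50 kb for 3419 (74.2%), and for 1188 (25.8%) there was none within 50 kb. The share of region probes tested was 44.4% on strands with a named gene inside and 30.7% on strands with none within 50 kb. Where a region strand was called, the nearest named gene within 50 kb was called as well for 89 of 413 strands at 6 weeks (21.5%, 62 in the same direction and 27 in the other), against 241 of 1272 uncalled strands (18.9%). At 12 weeks it was 19 of 94 (20.2%, 17 in the same direction) against 135 of 1591 (8.49%). In the wild type between the ages it was 23 of 131 (17.6%, 20 in the same direction) against 108 of 1554 (6.95%). In the knockout it was 16 of 79 (20.3%, 15 in the same direction) against 115 of 1606 (7.16%). Genes with a probe inside the interval are counted here. At 6 weeks they were nearest to 112 of the 413 called strands. They gave 26 of the 62 same-direction calls and 3 of the 27 others. At 12 weeks it was 33 of 94 strands and 10 of 17 same-direction calls. With age it was 41 of 131 and 8 of 20 in the wild type. In the knockout it was 23 of 79 and 8 of 15. Uncalled strands were not split so, and whether such a gene is the interval's own transcript was not tested.

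Within 10 Mb of the Il18 probe lay 140 region probes, of which 36 were tested. At 6 weeks 5 (13.9%) passed, 2 higher and 3 lower, against 15.5% of all region probes and 19.8% of all probes, and 1 of the 36 passed with the slide as a block. At 12 weeks 0 passed in the limma fit (2 had an unadjusted p under 0.05), against 3.34% of region probes and 7.26% of all probes. Among the 6-week calls, A_30_P01022779 of chr9:56391562-56392142_F, was lower in the knockout at 6 weeks by 0.71 (adjusted p = 0.00165, 0.075 with the slide as a block) and fell with age in the wild type by 1.07 (adjusted p = 0.000404) and in the knockout by 0.59.

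Named noncoding RNAs on the array gave a background for these intervals. Of a list of 60, 42 had a probe and 28 were tested. At 6 weeks 4 passed (14.3%, against 19.8% of all probes tested): Mir17hg and Mir99ahg were higher in the knockout, and H19 and Airn, both imprinted transcripts, lower, Airn by 0.61 ± 0.14 (adjusted p = 0.0135), where the fit with the slide gave -0.08. At 12 weeks Dleu2 and Neat1 were higher, 2 of 28 (7.14%) against 7.26% of all probes. Lockd, which lies beside Cdkn1b, rose with age in the wild type by 1.88 ± 0.42 (adjusted p = 0.0233, 0.29 with the slide as a block). It was 1 of 28 to pass there (3.57%), against 8.27% of all probes. In the knockout Malat1, Meg3 and Snhg11 rose, Snhg11, a small nucleolar RNA host gene, by 2.21 ± 0.31 (adjusted p = 0.00404).

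Base composition moved with some of these calls. Tested region probes had a median GC content of 45%. Of the 127 probes higher in the knockout at 12 weeks, 65 were among the 1573 probes of 21.7% to 41.7% GC and 11 among the 1262 of 55% to 88.3% GC. Rises with age in the knockout numbered 63 in the first of these bins and 4 in the second. The median 6-week difference was -0.0040 in the first and -0.10 in the second. The part of base composition in the calls was not tested. The hexamer AATAAA, the common polyadenylation signal, or its reverse complement TTTATT was sought by letters alone. Either lay in 6.84% of region probes, 6.57% of tested region probes and 16.2% of other probes. It lay in 18 of the 126 probes (14.3%) that rose with age in the knockout, and in 3.70% of those that fell. In the other sets of calls by genotype at each age or by age in the wild type the share was 6.06% to 7.44%. The 126 rising probes had a median GC content of 42.5%, and its part in their share was not tested.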

How the data were processed

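Signals of 12 arrays were deposited as scanner output: per the file headers, processed intensities are background-subtracted, spatially detrended by Agilent Feature Extraction 10.7.3.1, and carry a surrogate where low, with no scaling between arrays. From these, log2 values were set relative to each array's 75th percentile and spots of 1 probe averaged. Tested probes had the scanner's well-above-background flag throughout at least 1 group of 3 arrays. limma 3.58.1 (R 4.3.3) fitted the 4 group means (8 residual degrees of freedom), tested on simulated data first. Alternatives were the slide as a block, slide 2 alone, normexp (offset 50), quantile scaling, other filters and leaving out each array.

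Named regions were, per comparison, up to 8 rises and 8 falls, the largest among non-overlapping calls, and up to 6 strands on which all probes passed. The members and lists were chosen with earlier results of these data known. Replicate numbers did not pair the samples (correlations of same-numbered arrays -0.073 to 0.158). With 3 arrays a group, precision is limited by their number. Gene biotypes come from RefSeq. Probe sequences are those of the files.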

Additional observations from a re-analysis of the deposited data

Results flagged for a closer look

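In the limma fit the genotype difference changed with age for 291 region probes (5.04% of those tested, against 9.6% of all probes). The 16 region strands listed here hold the 8 largest changes in each direction, by the rule for named regions, and are the extremes of those calls. Of the 32 named calls of this change, the slide as a fixed block kept 17 and left 15 no longer past the threshold. For chr8:26343277-26352902_F no probe passed with that block, and for chr17:32044823-32045974_R 3 did. The change is the 12-week minus the 6-week difference on the log2 scale.

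Upward changes were 3.77 for chr19:23068397-23190256_R, 3.00 for chr19:29546348-29596479_R, 2.34 for chr8:26343277-26352902_F and 2.29 for chr4:101040523-101080248_F. Others were 2.24 for chr4:123361002-123364781_R, 2.21 for chr9:78107225-78118850_R, 2.10 for chr6:133054025-133069850_R and 2.06 for chr17:47006033-47023558_R.

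Downward changes were -2.85 for chr15:12119755-12127230_R, -2.75 for chr12:74135916-74142780_F, -2.72 for chr9:75316023-75344401_F and -2.53 for chr5:22890322-22939119_R. Others were -2.52 for chr5:125190100-125209625_R, -2.44 for chr17:32044823-32045974_R, -2.43 for chr9:114412295-114418384_F and -2.41 for chr1:138570107-138632310_F.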

How the results depend on the processing

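The count of region probes called at 6 weeks was 892, and became 88 with the slide as a fixed block, 164 with the slide as a random block and 484 with 1 probe per gene name. At 12 weeks 193 became 92 with slide 2 only, 90 with no filter on dim probes, 352 with normexp and 92 with 1 probe per name. In the wild type with age 289 became 120 and 142 with the slide fixed and random, and 131 with 1 probe per name. In the knockout with age 207 became 80 with no filter and 85 with 1 probe per name. Averaged over the ages 822 became 66, 119 and 444 (slide fixed, slide random, 1 probe per name), and for the change of the genotype difference 291 became 145 with no filter and 124 with 1 probe per name.

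Leaving out 1 array gave 430 to 1358 calls at 6 weeks, 61 to 294 at 12 weeks, 133 to 976 in the wild type with age, 57 to 254 in the knockout with age, 467 to 1174 averaged and 167 to 585 for the change. The most calls came without wild type replicate 1 of 12 weeks at 6 weeks (1358), in the wild type with age (976) and for the change (585), and without wild type replicate 3 of 12 weeks at 12 weeks (294). The fewest came without knockout replicate 2 of 6 weeks (430), knockout replicate 3 of 12 weeks (61), wild type replicate 2 of 12 weeks (133) and knockout replicate 2 of 12 weeks (57).

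With the replicate number as a block, which does not pair the samples here, the counts were 762, 161, 227, 172, 725 and 229. By the scanner's flag of a positive and significant signal 11034 in place of 5772 region probes were detected, with 952 intervals on both strands, 97 on 1 strand and 18 on neither. The count of strands with a named gene was 1895 within 10 kb and 715 inside, in place of 3419.

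Of the 190 named calls, the slide as a fixed block kept 93, left 94 no longer past the threshold and turned the sign of 3: chr15:73455424-73477275_F at 6 weeks (-0.012), chr15:83181291-83197750_R at 6 weeks (0.027) and chr13:62580825-62596425_R averaged over the ages (0.11). The causes of these shifts were not tested. Kept calls numbered 142 with the slide as a random block, 170 with normexp, 179 with quantile scaling, 121 with no filter, 165 with the replicate block and 190 on the deposited value table.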
